A study of Mus musculus with 6 samples.

Results

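The genes described here are 9 regulators that mark or maintain the nephron progenitors of the developing mouse kidney: Six2, Cited1, Eya1, Osr1, Sall1, Wt1, Pax2, Meox1 and Meox2. They were chosen by gene symbol, and each matched 1 of the 22394 genes in the deposited table. RNA was sequenced from the whole paired kidneys of E13.5 mouse embryos, with 3 mutant and 3 control libraries, each labelled as a sample of its own. The mutants were Foxd1Cre;Ptch1 (flox/-) and the controls were littermates of the genotype Ptch1 (flox/+), so a floxed Ptch1 allele was shared by both groups and the other allele was null in mutants and wild type in controls. Foxd1Cre places Cre recombinase under Foxd1, a gene of stromal progenitors in the kidney, and Ptch1 encodes the Hedgehog receptor that holds the pathway off without ligand. No Cre is named in the control genotype, so Cre itself and the null Ptch1 allele in all other cells, nephron progenitors included, cannot be told apart from loss of Ptch1 in the stroma.

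Nephron progenitors form the cap mesenchyme, a layer of cells around each tip of the branching ureteric bud, and the stromal progenitors lie just outside it. Progenitors either renew themselves or answer a Wnt signal from the bud by turning into epithelium, which becomes the nephron. Six2 holds them in the renewing state, Osr1, Eya1, Pax2, Wt1 and Sall1 act from the earliest kidney mesenchyme onwards, and Cited1, Meox1 and Meox2 are expressed in the uninduced cap.

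Promoter sequence is shown for Six2, the most abundant member, whose lowest library was a control, and for Meox2, which was below every control in all mutants. Of the 9 members, 5 matched the RefSeq promoter table (Six2, Cited1, Sall1, Pax2 and Meox2, with 11 windows in all), and Wt1, Eya1, Osr1 and Meox1 had no entry. Each sequence is the 250 bases before the start site in GRCm38.p6, 5′ to 3′ on the strand of the gene. Capitals mark TATAA on either strand.
Six2, chr17:85688255-85688504, minus strand: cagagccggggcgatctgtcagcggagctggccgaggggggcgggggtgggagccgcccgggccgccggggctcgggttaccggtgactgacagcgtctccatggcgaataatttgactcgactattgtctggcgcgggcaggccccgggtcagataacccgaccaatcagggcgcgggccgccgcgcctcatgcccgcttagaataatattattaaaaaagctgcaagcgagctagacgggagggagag
Meox2, chr12:37108290-37108539, plus strand: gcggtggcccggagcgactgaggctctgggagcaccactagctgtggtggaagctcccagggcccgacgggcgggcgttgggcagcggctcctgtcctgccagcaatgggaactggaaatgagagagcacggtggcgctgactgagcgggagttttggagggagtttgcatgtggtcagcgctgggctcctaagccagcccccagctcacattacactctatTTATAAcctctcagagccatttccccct
The Six2 window held 26 CG dinucleotides and no TATAA. The Meox2 window held 12 CG dinucleotides, and its TATAA lay close to the start site. The median over all 32851 windows of this length was 6 CG, and 22.8% of them held TATAA. Of the 11 windows of the members, 3 held TATAA. The letters GACCACCCA, to which GLI proteins bind, were in 0 of the 11 windows and in 0.225% of all windows on either strand. For the letters TCANGTTTC, a binding motif of Six2 relatives, the counts were 0 of 11 and 0.989%. For the homeodomain letters TAATTA they were 0 of 11 and 4.84%, and for the WT1 letters GCGTGGGNG 1 of 11 (a Sall1 window) and 1.65%. These letter matches describe the windows only.

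The libraries held between 13261588 reads (mutant 2) and 47847925 reads (mutant 3). Control 2 stood apart from the others. It lay at 75.8 on the first principal component, which took 39.4% of the variance, where the other 5 libraries lay between -24.6 and 8.49. Its mitochondrial genes took 0.367% of reads, against 1.21% to 2.12% elsewhere. The Y-linked gene Ddx3y had 13.9 to 17.8 FPKM (reads per length of gene and depth of library) in control 2 and all 3 mutants and under 0.06 FPKM in controls 1 and 3, so the share of Ddx3y-positive libraries differed between the groups. Xist was also present in mutant 3, at 6.19 FPKM against 0.0471 to 0.206 FPKM in the other Ddx3y-positive libraries, so mutant 3 did not read as a sample of a single sex. Ptch1 had 8.26, 7.91 and 7.60 FPKM in controls 1 to 3 and 23.5, 35.8 and 29.8 FPKM in mutants 1 to 3. It rose by 1.89 on the log2 scale (limma adjusted p = 0.00443). Which exons these reads cover is not given, so this level says nothing of the deletion. The fold changes in the authors' deposited table also weigh the libraries unequally. Over 7561 well-covered genes they were matched (r = 0.9997 across genes) by weights of -0.57 for control 2, -0.43 for control 3 and close to 0 for control 1. A model that pairs control 2 with mutants 1 and 2 and control 3 with mutant 3 gives such weights. A plain difference of means gave r = 0.928, and the labels do not name a covariate.

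All 9 progenitor regulators were expressed in every kidney sample, and 8 of them had lower mean levels in the mutants. Wt1, Meox2, Eya1, Pax2 and Sall1 were lower in every mutant than in every control. Their mean mutant FPKM lay 31.8%, 31.1%, 27.4%, 24.7% and 14.9% below the control mean, in that order. None of the 9 passed the threshold of limma, an adjusted p under 0.05 over all 16933 genes tested, which called 0.307% of those genes. Without adjustment, 4 members (Wt1, Eya1, Meox2 and Pax2) had p under 0.05, all lower in mutants, where 4.37% of tested genes were called in that direction. Groups that did not overlap, with mutants below, were found for 5 of 9 members and for 9.09% of tested genes. The median log2 fold change of the members was -0.41, against -0.01 over all tested genes, of which 50.9% were negative. The members' median was -0.22 without control 1, with library sets as terms and in the authors' deposited comparison. It was -0.28 without control 3, so its size depended on which controls were kept and how they were weighed. In whole kidneys, fewer progenitors and less RNA per progenitor cannot be told apart.

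**Figure D1:**
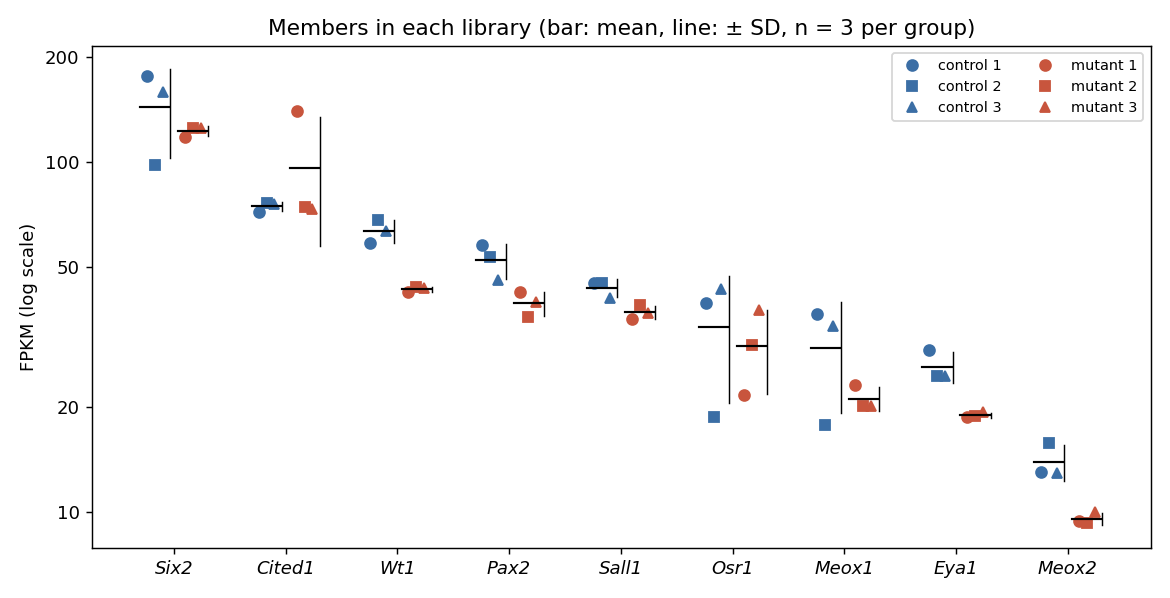
FPKM of the 9 members (vertical axis, log scale) in each of the 3 control and 3 mutant libraries, 1 point per library, with a bar at the mean of each group and a line of ± SD. The points of the groups do not overlap for Wt1, Meox2, Eya1, Pax2 and Sall1, and the Six2 controls spread from 97.9 to 175.9 FPKM while its mutants sit between 118.2 and 125.2.

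Wt1 (ENSMUSG00000016458.14, chr2:105126529-105173616, plus strand) encodes a zinc finger factor needed for the kidney mesenchyme to survive, which is later high in podocytes. Its levels were 58.9, 68.3 and 63.5 FPKM in controls 1 to 3 and 42.5, 43.9 and 43.6 FPKM in mutants 1 to 3. The 3 mutants were nearly alike and all lay well below the lowest control. The control mean was 63.6 ± 4.70 FPKM and the mutant mean 43.3 ± 0.708 FPKM (SD, n = 3 each). On the log2 scale the difference was -0.55 (SE 0.11, 95% interval -0.80 to -0.30), with an adjusted p of 0.112 by limma. In the authors' deposited table, Wt1 had -0.61 (SE 0.17) and an adjusted p of 0.0104. It was the only 1 of the 9 members called there, where 4.61% of the 15881 genes with an adjusted p were called. Wt1 is shared with podocytes, so their markers were read beside it. Of the 13 podocyte genes tested, 0 were called by limma or in the authors' deposited table, and 1 (Lmx1b, lower in mutants) had an unadjusted p under 0.05.

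Meox2 and Meox1 encode homeobox factors best known from the somites and also present in the cap mesenchyme. Meox2 (ENSMUSG00000036144.6, chr12:37108540-37179534, plus strand) had 12.97, 15.8 and 12.9 FPKM in controls and 9.42, 9.28 and 10.003 FPKM in mutants. All mutants were below all controls, with control 2 the highest of the 6. Its log2 fold change was -0.53 (SE 0.14, 95% interval -0.84 to -0.22), with an adjusted p of 0.249 by limma. In the authors' deposited table the value was -0.59 and the adjusted p was 0.0956.

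Meox1 (ENSMUSG00000001493.9, chr11:101877510-101894374, minus strand) had 36.7, 17.7 and 34.0 FPKM in controls and 23.0, 20.1 and 20.1 FPKM in mutants. Here control 2 was the lowest of the 6 libraries, so the groups overlapped. By log2 fold change the difference was -0.41 (SE 0.26, 95% interval -1.0001 to 0.17; adjusted p = 0.602 by limma). Without control 2 it was -0.75 and passed the threshold (adjusted p = 0.0351 by limma). The authors' deposited table, which weighs control 2 most, had -0.18 for Meox1 with an adjusted p of 0.780.

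Because the Meox genes are also active in muscle precursors, the muscle lineage list was read beside them. Of 13 tested muscle lineage genes, 5 fell and 0 rose by limma, with a median log2 fold change of -2.76, and the list score (the mean log2 level of its tested genes relative to the controls) ran from -0.25 to 0.41 in controls and from -2.96 to -1.91 in mutants. Myog, the muscle differentiation factor, had 4.32, 3.60 and 6.48 FPKM in controls and 0.457, 1.10 and 0.573 FPKM in mutants. Pax3, Pax7 and Myf5, which define the muscle progenitors of the somite, were under 0.22 FPKM in all 6 libraries. They were added after their values were seen and were too low to be tested. Mean FPKM in controls and mutants was 0.047 and 0.0012 for Pax7, 0.085 and 0.014 for Myf5, and 0.018 and 0.029 for Pax3. The part of muscle cells in the Meox values was not tested.

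Eya1 encodes a phosphatase and co-activator that binds Six2 and its relatives. At chr1:14168954-14310235 on the minus strand (ENSMUSG00000025932.14), it had 29.1, 24.4 and 24.5 FPKM in controls and 18.7, 18.7 and 19.3 FPKM in mutants. The mutants lay within a narrow band under the lowest control. The difference on the log2 scale was -0.46 (SE 0.12, 95% interval -0.72 to -0.19; adjusted p = 0.242 by limma), and the authors' deposited table had -0.37 with an adjusted p of 0.236.

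Pax2, the paired box factor of the nephron lineage, is also a gene of the ureteric bud (ENSMUSG00000004231.15, chr19:44756045-44837871, plus strand). Its levels were 57.8, 53.4 and 46.0 FPKM in controls and 42.5, 36.1 and 39.8 FPKM in mutants. The highest mutant came within a few FPKM of the lowest control. The log2 fold change was -0.41 (SE 0.13, 95% interval -0.71 to -0.11; adjusted p = 0.401 by limma). Of 16 ureteric bud genes 0 were called by limma, and 2 were called higher in the authors' deposited table. Their median log2 fold change was 0.32, but 0.09 without mutant 1, 0.11 with library sets as terms and 0.15 in the authors' deposited comparison. The difference between this list and Pax2 was not tested.

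Sall1 encodes a zinc finger repressor of the progenitors (ENSMUSG00000031665.7, chr8:89027235-89044162, minus strand). It had 45.3, 45.1 and 40.9 FPKM in controls and 35.7, 39.0 and 37.1 FPKM in mutants. The groups did not overlap, but their nearest values were under 2 FPKM apart. The log2 fold change was -0.23 (SE 0.11, 95% interval -0.49 to 0.02; adjusted p = 0.543 by limma).

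Six2, the renewal factor of the cap, was the most abundant member in 5 of 6 libraries (ENSMUSG00000024134.11, chr17:85684277-85688274, minus strand). It had 175.9, 97.9 and 158.3 FPKM in controls and 118.2, 124.9 and 125.2 FPKM in mutants. Control 2 was the lowest and controls 1 and 3 the highest of the 6, with the mutants between them. Six2 thus had 144 ± 40.9 FPKM in controls and 123 ± 3.94 in mutants (SD, n = 3 each). The log2 fold change was -0.19 (SE 0.21, 95% interval -0.67 to 0.29; adjusted p = 0.741 by limma). Without control 2 it was -0.44 (adjusted p = 0.220 by limma), and in the authors' deposited table it was 0.03 (adjusted p = 0.966). The sign for Six2 therefore depended on how the controls were weighed.

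Osr1 encodes a zinc finger factor of the intermediate mesoderm (ENSMUSG00000048387.8, chr12:9570116-9581500, plus strand). It had 39.5, 18.6 and 43.4 FPKM in controls and 21.6, 30.0 and 37.8 FPKM in mutants. Control 2 was again the lowest, and all 3 mutants lay within the range of the controls. The log2 fold change was -0.13 (SE 0.33, 95% interval -0.88 to 0.62; adjusted p = 0.893 by limma), and it was 0.17 in the authors' deposited table (adjusted p = 0.769).

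Cited1, a co-activator without a DNA-binding domain that marks uninduced progenitors, was the 1 member with a higher mean in mutants (ENSMUSG00000051159.16, chrX:102247381-102252181, minus strand). It had 72.0, 76.3 and 75.8 FPKM in controls and 140.2, 74.2 and 73.5 FPKM in mutants. Only mutant 1 was high, and mutants 2 and 3 lay within the control range. The log2 fold change was 0.29 (SE 0.24, 95% interval -0.25 to 0.83; adjusted p = 0.652 by limma), and without mutant 1 it was -0.02. In mutant 1, Cited1 exceeded Six2, which it did in no other library. Mutant 1 was also the highest mutant for the committed nephron score (0.44, against -0.36 and -0.11 in mutants 2 and 3) and for the ureteric bud score (0.64, against 0.07 and 0.09). Control 2, with Cited1 at 76.3 FPKM, scored 0.67 and 0.37 on the same lists. Cited1 lies on the X chromosome, and the X-linked Xist had 72.9, 0.0471 and 53.3 FPKM in controls and 0.103, 0.206 and 6.19 FPKM in mutants. The part of other cells or of embryo sex in the Cited1 values was not tested.

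**Figure D2:**
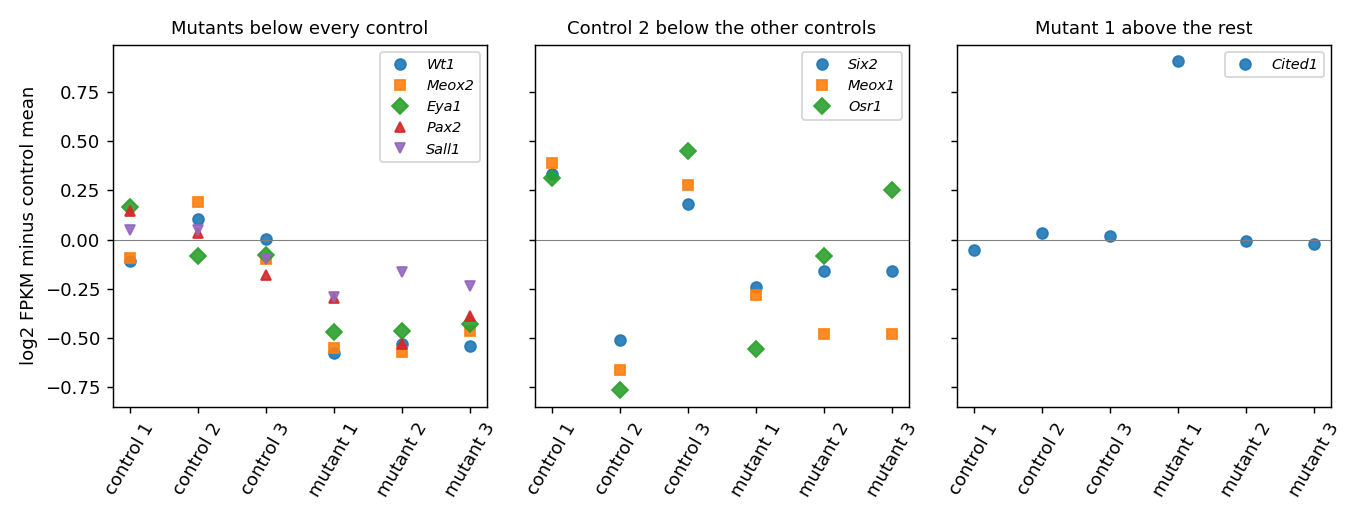
Level of each member in each library on the log2 scale, relative to the mean of its 3 controls (vertical axis), in 3 panels that sort the members by pattern, 1 point per library. Wt1, Meox2, Eya1, Pax2 and Sall1 are below every control in all mutants (left), Six2, Meox1 and Osr1 are lowest in control 2 (middle), and Cited1 is high in mutant 1 (right).

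The spread among controls separated the members. In control 2, Six2, Osr1 and Meox1 had 0.586, 0.449 and 0.4998 of the mean of controls 1 and 3. Ratios under 0.6 were found for these 3 of 9 members and for 12.4% of tested genes. The stromal gene Foxd1 was low in the same library, at 31.5 FPKM against 75.8 and 82.4 FPKM in controls 1 and 3, and Pax8, a gene of committed nephrons, was high there at 32.4 FPKM against 18.2 and 16.8 FPKM. The cortical stroma score was -0.56 in control 2, against 0.24 and 0.32 in controls 1 and 3. The committed nephron score was 0.67 there, against -0.29 and -0.38. Some genes of these lists went the other way, among them Wnt4 (24.5 FPKM against 31.0 and 27.1) and the stromal gene Rarb (21.5 FPKM against 14.4 and 18.6). The part of cell make-up in the control 2 values was not tested. Control 2 was the lowest library for Six2, Osr1 and Meox1, and without it their mutants lay below both remaining controls. The share of tested genes for which this held was not counted, so no weight is placed on it. The coefficient of variation was smaller in mutants than in controls for 8 of 9 members and for 61.7% of tested genes.

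Within the library sets that the deposited weights point to, Wt1, Meox2, Eya1, Pax2 and Sall1 were lower in both. For these 5, every mutant lay below every control, so this result was fixed in advance and adds no support. Mutants 1 and 2 had 0.633 of the Wt1 FPKM of control 2, and mutant 3 had 0.686 of that of control 3. For Meox2 these ratios were 0.592 and 0.776, and for Eya1 0.765 and 0.785. The other 4 members turned direction between the sets, with ratios of 1.24 and 0.791 for Six2, 1.38 and 0.870 for Osr1, 1.22 and 0.591 for Meox1, and 1.40 and 0.970 for Cited1. Lower values in both sets were found for the same 5 of 9 members and for 32.9% of tested genes.

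**Figure D3:**
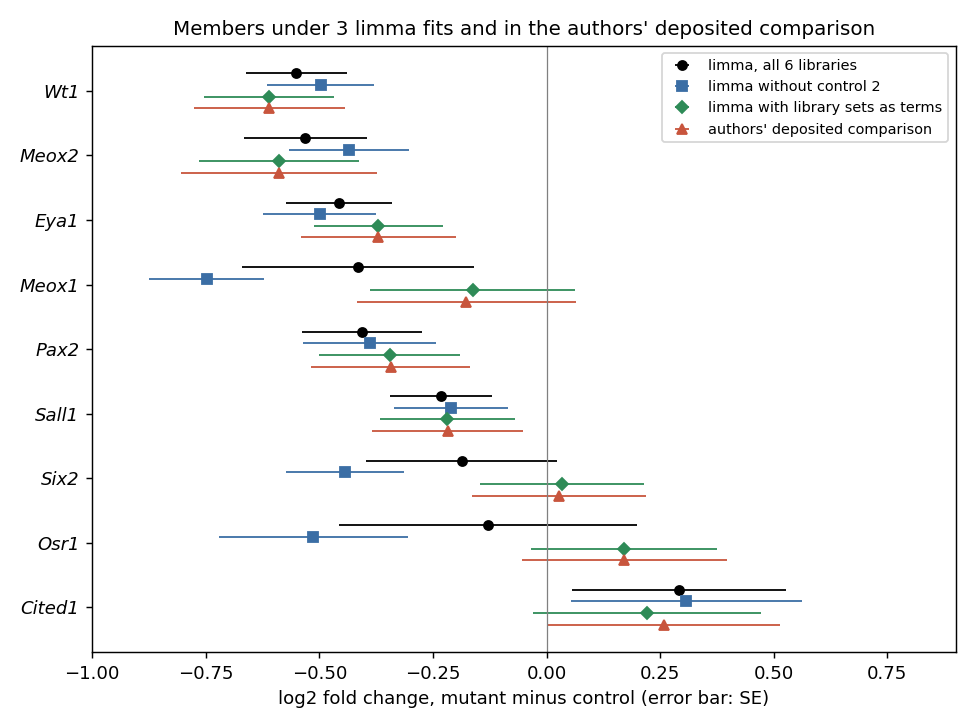
Log2 fold change, mutant minus control, of each member (horizontal axis, error bars are SE) by limma on all 6 libraries, without control 2 and with library sets as terms, and in the authors' deposited comparison. Wt1, Meox2, Eya1, Pax2 and Sall1 are below 0 in all 4, and Six2 and Osr1 move from -0.44 and -0.51 without control 2 to above 0 with library sets. The sign of Wt1, Meox2, Eya1, Pax2 and Sall1 was fixed in advance in the limma fits, since every mutant lay below every control.

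Ordered by mean control FPKM, the members ran Six2, Cited1, Wt1, Pax2, Sall1, Osr1, Meox1, Eya1 and Meox2, and the mutants kept this order of means. In controls the ranges of neighbours overlapped for Sall1 and Osr1, Osr1 and Meox1, and Meox1 and Eya1. In mutants they overlapped for Six2 and Cited1, Pax2 and Sall1, Sall1 and Osr1, and Osr1 and Meox1. The summed FPKM of the members was 528, 418 and 499 in controls and 452, 396 and 406 in mutants. Six2 made up 33.3%, 23.4% and 31.7% of this sum in controls and 26.2%, 31.5% and 30.8% in mutants.

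Ratios within a library, in which its scaling cancels, were taken for the other 8 members against Six2. By exact permutation tests, two-sided, p lay between 0.2 and 1 (0.8 to 1 after Benjamini-Hochberg adjustment over the 8), where 3 against 3 libraries allow no p below 0.1. The log2 ratio of Wt1 to Six2 was -1.58, -0.52 and -1.32 in controls and -1.47, -1.51 and -1.52 in mutants. The mutants lay inside the range of the controls, which control 2 widened.

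For Six2 and Wt1, the genes of most similar pattern were found by the root mean square difference in centred log2 level over the 6 libraries, among 12240 genes. Nearest to Six2 were Pbdc1 (0.0579), B4galnt4, Tob1, Ccdc134 and Unc5c (0.0803), where the median gene was at 0.343. Among the members Meox1 came closest to Six2, at rank 213. Nearest to Wt1 were Chchd4 (0.0458), Meox2 (0.0649), Top3a, Shmt1 and Oxnad1 (0.0726), with a median of 0.318. Meox2 thus had rank 2 among all candidates for Wt1, followed among the members by Eya1 (0.148), Pax2 at rank 653 and Sall1 at rank 891. Six2 came at rank 7571.

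Among 16 listed paralogs of the members, 13 were tested, 0 were called by limma and the median log2 fold change was -0.09. Cited2, a co-activator of the Cited family, had 38.9, 51.2 and 47.9 FPKM in controls and 37.4, 34.1 and 36.3 FPKM in mutants (log2 fold change -0.35, adjusted p = 0.478 by limma). Osr2, the Osr1 paralog of the forming nephron, had 5.43, 20.4 and 9.32 FPKM in controls and 8.71, 4.90 and 5.09 FPKM in mutants, and was called lower in the authors' deposited table (-1.28, adjusted p = 0.000507). Control 2 was the highest library for Osr2 and the lowest for Osr1. Cited4 resembled Cited1 in having its highest value in mutant 1, with 3.78, 4.79 and 2.15 FPKM in controls and 11.5, 3.29 and 4.14 FPKM in mutants (log2 fold change 0.66, adjusted p = 0.631 by limma). Among the Eya1 paralogs, Eya2 had 9.30 to 10.8 FPKM and Eya4 9.09 to 12.4 FPKM over the 6 libraries. Eya3 had 15.6, 16.6 and 16.1 FPKM in controls and 12.05, 14.6 and 15.2 FPKM in mutants, without overlap. Groups that did not overlap, with mutants below, were found for 2 of the 13 tested paralogs (Cited2 and Eya3) and for 9.09% of tested genes. The log2 fold changes of Eya2, Eya3 and Eya4 (0.06, -0.21 and 0.01) were nearer 0 than that of Eya1, a difference that was not tested. Sall2 ranged from 21.3 to 32.2 FPKM, Six5 from 20.8 to 23.3 FPKM and Six4 from 1.92 to 2.70 FPKM, and limma called none of these 3. Pax8, the Pax2 paralog of committed nephrons, was high in control 2 and mutant 1, at 32.4 and 28.6 FPKM, and lay between 16.7 and 18.2 FPKM in the other 4 libraries.

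Among 22 other genes of the same progenitors, 0 were called by limma, 12 were negative and 10 positive, and the median log2 fold change was -0.09. Its sign turned without control 1 (0.07) and without mutant 2 (0.02), with library sets as terms (0.09) and in the authors' deposited comparison (0.0995), and it was -0.24 without control 2. The authors' deposited table called 2 of them higher and 1 lower. Capn6, a calpain-family gene of the cap, had 80.4, 88.6 and 101.5 FPKM in controls and 58.4, 60.9 and 70.4 FPKM in mutants, and was called lower in the authors' deposited table only (adjusted p = 0.019, against 0.300 by limma). Fgf9, whose ligand keeps progenitors alive, had 3.58, 1.63 and 1.97 FPKM in controls and 4.603, 3.64 and 3.79 FPKM in mutants, while its relative Fgf20 had 4.44, 3.999 and 4.38 FPKM in controls and 2.93, 2.94 and 3.02 FPKM in mutants. Neither passed by limma (adjusted p = 0.441 and 0.456), while Fgf9 was called higher in the authors' deposited table (log2 fold change 1.16, adjusted p = 0.00257). Gdnf, the signal of the cap to the bud, had 21.7, 15.1 and 18.6 FPKM in controls and 18.05, 17.02 and 20.4 FPKM in mutants.

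Of 26 cofactors and chromatin partners of the members, 0 were called by limma or by the authors' deposited table, and the median was -0.15. Mycn, a growth regulator of progenitors, had 54.3, 39.1 and 51.0 FPKM in controls and 30.7, 35.0 and 36.8 FPKM in mutants, without overlap (log2 fold change -0.49, adjusted p = 0.375 by limma). Paxip1, which links Pax2 to histone methylation, had a log2 fold change of -0.38, and Lef1, a Wnt effector, had 0.43 (adjusted p = 0.480 and 0.396 by limma).

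Genes downstream of the progenitors, and of other cells, gave the setting of these values. Of 20 committed nephron genes 0 were called by limma, with a median of -0.02. That median ran from -0.26 without control 3 to 0.27 without control 2 and was -0.24 in the authors' deposited comparison, so it has no settled sign. Wnt4, which drives the change to epithelium, had 31.0, 24.5 and 27.1 FPKM in controls and 30.9, 24.6 and 26.3 FPKM in mutants, and the mutant values lay within the control range. Of 14 endothelial genes 4 rose and 0 fell by limma, with a median of 0.93, and the list scores of the mutants (0.69 to 1.07) lay above those of the controls (-0.09 to 0.06). Of 14 proliferation genes 0 were called by limma, and 13 were negative, with a median of -0.19. Of 8 tested gonad, adrenal and mesothelium genes 0 were called by limma and 7 were positive, with a median of 0.29. Their score was -0.05, 0.03 and 0.02 in controls and 0.59, 0.02 and 0.67 in mutants, so mutants 1 and 3 were high. The defining gonad and adrenal gene Nr5a1 was at or below 0.173 FPKM in every library. The score of the 9 members was 0.13, -0.18 and 0.05 in controls and -0.26, -0.33 and -0.27 in mutants, and the part of other cell types in it was not tested.

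**Figure D4:**
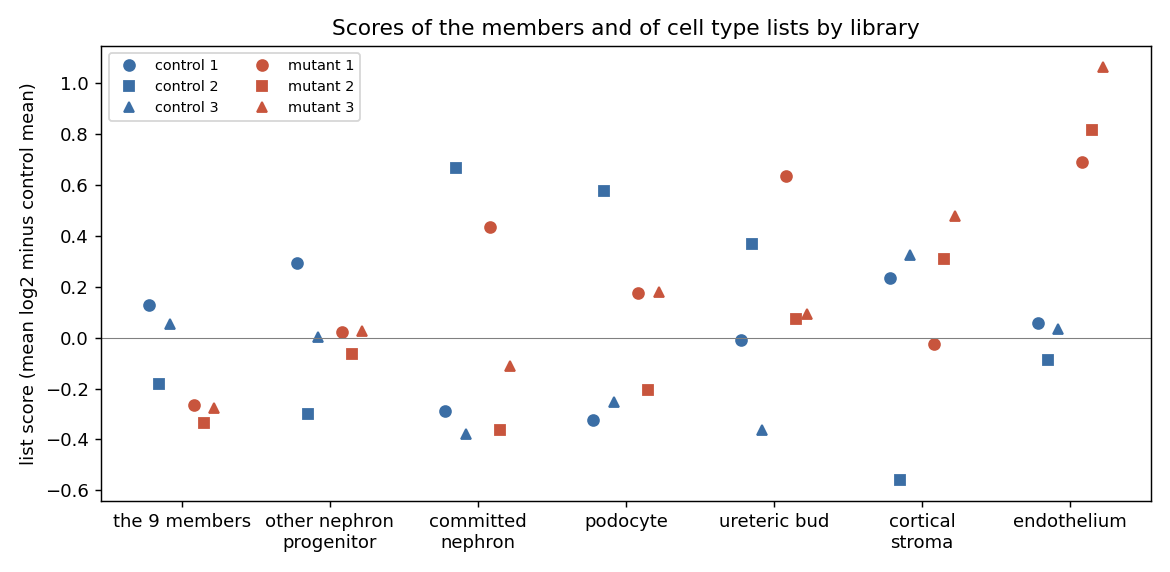
Score of the members and of lists of other kidney cell types (vertical axis, mean log2 level relative to the mean of the controls) in each of the 6 libraries, 1 point per library. The members sit between -0.33 and -0.26 in mutants and the endothelial list between 0.69 and 1.07, and control 2 is the highest control for the committed nephron, podocyte and ureteric bud lists.

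Between 293 reads (Meox2 in mutant 2) and 12688 reads (Six2 in mutant 3) lay behind each value of a member. The sources used here do not say if counting used the strand, so reads of overlapping genes on either strand may be shared. The overlapping gene Gm37444 within Eya1 had 2 to 39 reads per library and Gm48617 within Meox2 had 0 to 9. Genes annotated on the opposite strand over Eya1, Osr1, Pax2 and Meox1 were absent from the deposited values, so reads shared with them could not be checked.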

How the data were processed

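RNA of whole E13.5 kidneys was sequenced (3 control and 3 mutant libraries; the design names 3 mutant mice and littermates). Trim Galore, STAR 2.6.0c, HTSeq 0.6.1p2, DESeq2 1.26.0s and build mm10 are listed without roles per the submitters' processing notes. The model and the use of strand are not given in the sources used here. The deposited table holds FPKM made by the authors, a unit taken from the values. Per the file headers it also holds the authors' mean normalized signal, log2 fold change with its SE, test score, and p-value with its adjusted form.

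Each deposited FPKM was multiplied by the gene's mean normalized signal over its mean FPKM, giving normalized counts. These were divided by a step fitted to each library's own values (0.498 normalized counts per read in mutant 3 to 1.78 in mutant 2). After this division all 134364 values (100%) were whole reads to within 1e-06. Genes reaching a normalized count of 10 in at least 3 libraries were tested with limma 3.58.1 (R 4.3.3, intensity trend, no covariate) on log2(normalized count + 1), a scale that understates the change of low genes. Calls are Benjamini-Hochberg adjusted p under 0.05. No count model was run on the recovered reads beyond limma voom, and the authors' deposited comparison served beside it. The members and lists were chosen with earlier results of these data known.

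The 9 members are always named. Paralogs are named from a mean of 1 FPKM. Some items are not reported here. Of other lists, called genes or those of smallest p are named, with defining markers. Muscle factors Pax3, Pax7 and Myf5 were added after their values were seen. Same-numbered samples deviated together at r = 0.00081, -0.098 and 0.309, so the numbers were not taken as pairs. Alternatives changed the pseudocount, filter, scale, scaling, weights, test, block and libraries, and library sets were added after seeing the data. Positions are from GENCODE M21 (GRCm38) and promoters from RefSeq. The method was tested on simulated data. Lists of blood and macrophage genes (0 of 12 called by limma), gonad, adrenal and mesothelium genes (0 of 8), cortical stroma genes (0 of 15) and Hedgehog response genes (7 of 8, all higher) were also counted.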

Additional observations from a re-analysis of the deposited data

How the results depend on the processing

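Over 17 alternatives, Wt1 kept a negative log2 fold change (-0.61 to -0.48; adjusted p 0.0104 to 0.433). So did Meox2 (-0.59 to -0.43), Eya1 (-0.50 to -0.37), Meox1 (-0.75 to -0.16), Pax2 (-0.50 to -0.33) and Sall1 (-0.28 to -0.16). For these genes except Meox1, every mutant lay below every control. Their sign was therefore fixed in advance with changed pseudocounts, filters, library weights, blocks or library sets, and with each library left out. There it adds no support. The number of members called, 0 of 9, became 1 with limma's library weights (Wt1, adjusted p = 0.0138, from a weight estimate that warned of non-convergence), 1 in the authors' deposited comparison (Wt1), and 0 to 1 with each library left out (Meox1 without control 2). With the replicate block it was 0. The genes called over the whole table, 52, became 33 on log2(FPKM + 1), 380 with library weights, 17 with the replicate block, 215 with library sets as terms, 732 in the authors' deposited comparison, and 9 to 158 with each library left out (158 without control 2, 15 and 19 without controls 1 and 3, and 12, 9 and 13 without mutants 1, 2 and 3). Six2 turned positive with library sets (0.033) and in the authors' deposited comparison (0.028). Osr1 did so with library sets (0.170), in the authors' deposited comparison (0.171), and without control 1, control 3 or mutant 1 (leave-one-out range -0.51 to 0.097). Cited1 turned negative without mutant 1 (leave-one-out range -0.016 to 0.45). The leave-one-out log2 ratio to Six2 also changed sign for Osr1 (-0.118 to 0.245), Sall1 (-0.187 to 0.234), Pax2 (-0.400 to 0.054) and Meox2 (-0.557 to 0.0078). Each did so without control 2, and Osr1 also without mutant 3. The cause of these changes was not tested. The median of the muscle list was -1.38 on log2(FPKM + 1), that of the paralogs ran from -0.19 without control 3 to -0.0037 with library weights, and that of the cofactors from -0.19 without control 1 to -0.087 with quantile normalization. No scaling moved the median of all genes by over 0.1 log2. Limma cannot show small differences at 3 libraries a group: the 95% intervals of Six2, Cited1, Osr1, Sall1 and Meox1 hold 0.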
